A study of Mus musculus with 2 samples.

Results

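The genes described here are 10 RNA-binding regulators of neuronal splicing in the mouse embryonic hindbrain: Ptbp1, Ptbp2, Ptbp3, Srrm3, Srrm4, Nova1, Nova2, Rbfox1, Rbfox2 and Rbfox3. They were chosen by name and not by a cut on their values, though earlier results of these data were known. All 10 symbols matched 1 Ensembl gene each among the 43346 in the deposited tables. Hindbrain of healthy B6NCrl embryos at embryonic day 13.5, male and female tissue pooled, gave 2 total RNA libraries of 10 ng input. The libraries are labelled as biological replicates 1 and 2. They form 1 group with no mutant, treatment or second stage, so every comparison is between genes, between transcripts or between the libraries. The donor label is the same for both and the biosample labels differ, so part of the spread between them may not be biological.

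Alternative splicing changes as progenitors become neurons, and these families are among the factors that direct it. The polypyrimidine tract-binding proteins mostly repress exons: Ptbp1 is the form of progenitors and non-neural cells, Ptbp2 the form of differentiating neurons, and Ptbp3 a further paralog first described in blood cells. Ptbp1 protein promotes skipping of an exon in Ptbp2 transcripts, which marks them for decay, so that loss of Ptbp1 allows Ptbp2 to accumulate. Srrm3 and Srrm4 promote inclusion of microexons, the very short exons of neuronal transcripts. Nova1 and Nova2 bind YCAY motifs, and the Rbfox proteins bind GCAUG, each promoting or repressing an exon according to where the motif lies.

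Replicate 1 held 32314690 estimated counts on Ensembl genes and replicate 2 held 37772696. The tissue label was checked against marker lists. All 6 neuronal, all 6 progenitor and all 5 hindbrain markers reached 1 TPM (a transcript level per length, scaled to a fixed sum per library) in both libraries, against 1 of 5 forebrain markers, Lhx2. The neuronal marker sums were 3224 TPM (replicate 1) and 3103 TPM (replicate 2), and the progenitor sums 2615 and 2870 TPM. Single genes weighed heavily in both: Tubb3 held 1543 and 1475 TPM of the neuronal sums, and Fabp7 1787 and 2042 TPM of the progenitor sums. Markers of other cells were also present: all 5 mesenchymal markers (sums of 741 and 574 TPM), all 5 microglial (91.3 and 110 TPM), all 5 endothelial (146 and 155 TPM) and all 5 erythroid (10293 and 10992 TPM). In bulk tissue, fewer cells of a type and less RNA per cell cannot be told apart.

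All 10 regulators reached 1 TPM in both libraries, against 35.4% of all Ensembl genes. Their mean levels ran from 15.3 TPM for Nova2 to 171 TPM for Ptbp2, with a median of 63.0 TPM. The median of all 15342 detected genes was 16.1 TPM, and 9 of the 10 regulators lay above it. By TPM the order was Ptbp2, Rbfox1, Rbfox2, Srrm3, Ptbp1, Nova1, Rbfox3, Ptbp3, Srrm4 and Nova2. Of the 9 neighbouring pairs in this order, 6 were set apart in both libraries, meaning that neither the library values nor the deposited credibility intervals overlapped. Srrm3 and Ptbp1, Ptbp3 and Srrm4, and Srrm4 and Nova2 were not set apart by that rule.

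**Figure D1:**
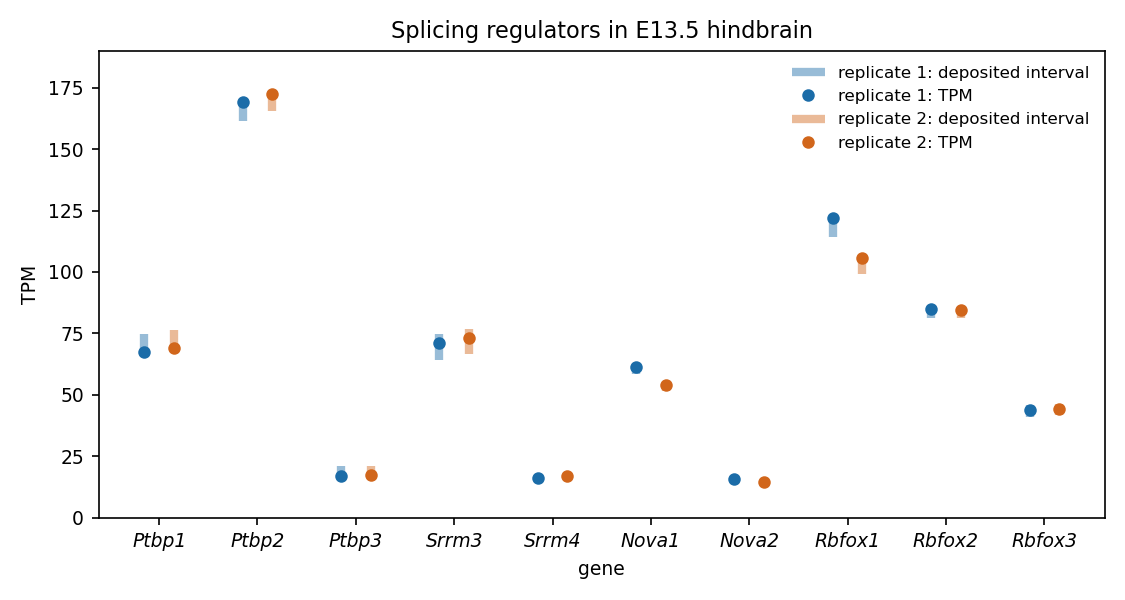
TPM of each regulator in replicate 1 (left) and replicate 2 (right). Points are the deposited TPM and bars the deposited credibility intervals, which surround a posterior mean and need not hold the TPM; Ptbp2 was highest in both libraries, and Nova1 and Rbfox1 are the 2 genes whose intervals did not overlap between libraries.

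Ptbp2 was the most abundant of the regulators, with 2.50-fold the level of Ptbp1. Ptbp2 (ENSMUSG00000028134.7, chr3:119718742-119784466 on GRCm38, minus strand) had 169 TPM in replicate 1 and 172 TPM in replicate 2, from 11395 and 13727 estimated counts. Ptbp1 (ENSMUSG00000006498.12, chr10:79854427-79864771, plus strand) had 67.3 and 69.2 TPM from 3665 and 4335 counts. Ptbp3 (ENSMUSG00000028382.11, chr4:59471868-59549364, minus strand) had 17.2 and 17.6 TPM from 1625 and 1987 counts. The ranges of the 3 genes were far apart in both libraries.

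On the log2(TPM + 1) scale Ptbp2 exceeded Ptbp1 by 1.32 in replicate 1 and 1.30 in replicate 2 (1.31 ± 0.00825, SD, n = 2). Of the summed TPM of the family, Ptbp2 carried 66.6% ± 0.114, Ptbp1 26.6% ± 0.112 and Ptbp3 6.78% ± 0.00136 (SD, n = 2). Ptbp2 exceeded 93.9% of all detected genes in level, Ptbp1 83.4% and Ptbp3 51.8%. The Ptbp1 value is uncertain, because its exons overlap those of Plppr3 on the opposite strand (331 and 321 TPM, 16309 and 18501 counts) and the strand setting of the counting is not given in the sources used here. Ptbp1 was also the only regulator whose estimated counts were not whole numbers, to within 0.005.

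The PTB paralogs share a coding exon of 34 nt. In Ptbp1 and Ptbp2 its skipping shifts the reading frame and is known to send the transcript to nonsense-mediated decay. The exon is shown for the leading transcript of each gene, in capitals, between 20 bases of the neighbouring coding exons in lower case, read 5′ to 3′ on the coding strand from the GENCODE M21 transcripts of GRCm38. It lies at chr10:79862014-79862047 in Ptbp1, at chr3:119724612-119724645 in Ptbp2 and at chr4:59485339-59485372 in Ptbp3.
Ptbp1: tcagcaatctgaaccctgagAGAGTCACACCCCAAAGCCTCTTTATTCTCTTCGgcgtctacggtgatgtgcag
Ptbp2: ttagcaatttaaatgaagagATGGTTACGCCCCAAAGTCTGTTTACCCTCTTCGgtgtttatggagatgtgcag
Ptbp3: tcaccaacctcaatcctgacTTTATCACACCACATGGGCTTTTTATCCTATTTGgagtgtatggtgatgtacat

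Of the 34 bases, Ptbp1 and Ptbp2 share 26 position by position, Ptbp1 and Ptbp3 share 22, and Ptbp2 and Ptbp3 share 21. Inclusion of the Ptbp1 exon was 100% in replicate 1 and 98.6% in replicate 2. Inclusion here is the TPM of transcripts that hold an exon as a percent of the TPM of transcripts that hold or skip it; it rests on the authors' division of reads between transcripts, since splice-junction counts were not used here. Both Ptbp1 transcripts that skip the exon, Ptbp1-201 and Ptbp1-207, are annotated as targets of nonsense-mediated decay, and the first of them was listed at 0 in replicate 1 and at 0.88 TPM in replicate 2. A transcript that decays can be scarce however often the exon is skipped. The Ptbp2 exon gave no value, because the tables hold 1 Ptbp2 transcript, Ptbp2-201, and it includes the exon. The Ptbp2 level therefore does not separate transcripts with the exon from any without it.

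A second Ptbp1 exon was divided almost evenly. The cassette exon of 78 nt at chr10:79860117-79860194 (plus strand) encodes part of the linker between RNA recognition motifs, and the protein with it is known to differ from the protein without it in repressing activity. It is shown from Ptbp1-216 with the exon in capitals and 20 coding bases to each side.
Ptbp1 78-nt exon: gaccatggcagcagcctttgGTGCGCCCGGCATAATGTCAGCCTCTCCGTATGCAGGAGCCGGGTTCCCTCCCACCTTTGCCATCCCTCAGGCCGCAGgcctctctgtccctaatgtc

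Inclusion of the 78-nt exon was 47.1% in replicate 1 and 44.7% in replicate 2 (45.9% ± 1.70, SD, n = 2). The split lay among 3 coding transcripts. Ptbp1-216, which includes the exon, had 28.1 and 27.1 TPM. Ptbp1-202 (20.5 and 22.5 TPM) and Ptbp1-206 (11.3 and 10.4 TPM) skip it. Their coding sequences are 1665 nt in Ptbp1-216, 1467 nt in Ptbp1-202 and 1587 nt in Ptbp1-206. By these lengths Ptbp1-202 differs from Ptbp1-216 by more than the 78-nt exon. Transcripts with and without the exon were thus at similar levels in the 2 libraries, though the division of reads is uncertain. The deposited interval of Ptbp1-206 was 1.55 to 14.2 TPM in replicate 1 and 4.87 to 14.6 TPM in replicate 2. Retained-intron transcripts made up 7.53% and 5.75% of Ptbp1 TPM.

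Ptbp3 was led by Ptbp3-201, which carried 58.8% and 58.0% of its TPM. Its annotated 34-nt exon near the 5′ end of the gene (chr4:59546149-59546182), a different exon from the one shown above, was included at 22.5% in replicate 1 and 22.6% in replicate 2. Among coding transcripts with both ends annotated, the same exon had 16.3% and 23.0%. The 170-nt exon of Ptbp3 was included at 92.0% and 97.8%. This value too depended on the processing: it was 100% in both libraries among coding transcripts with both ends annotated. With the posterior mean TPM it was 87.9% on average.

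Srrm3 stood above Srrm4 in TPM, while Srrm4 had more reads. Srrm3 (ENSMUSG00000039860.15, chr5:135806890-135874772, plus strand) had 71.1 TPM in replicate 1 and 73.1 TPM in replicate 2, from 1436 and 1636 counts. Srrm4, also known as nSR100 (ENSMUSG00000063919.8, chr5:116439275-116591817, minus strand), had 16.1 and 17.2 TPM from 2428 and 3073 counts. In TPM Srrm3 was 4.34-fold higher than Srrm4, while in counts, which are not divided by length, the ratio of Srrm3 to Srrm4 was 0.562.

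The transcript models show where the scales part. Of Srrm3 TPM, 67.1% in replicate 1 and 66.7% in replicate 2 were assigned to Srrm3-202, a 526-nt model of 4 exons from the 5′ part of the gene, annotated with no mRNA end found. The long coding transcript Srrm3-204, of 3932 nt, had 7.43 and 5.83 TPM. Retained-intron transcripts had 18.5% and 19.6% of Srrm3 TPM. With each gene rescaled to its longest transcript, Srrm3 came to 17.8 TPM on average, 4.05-fold under the deposited value, and its log2 difference from Srrm4 was 0.10 in place of 2.05. Srrm3 thus stayed above Srrm4 with either length, by 1.14-fold in replicate 1 and 1.02-fold in replicate 2 with the longest transcript, and was below it in counts. Srrm4 was carried almost wholly by Srrm4-201, at 97.4% and 98.3% of its TPM. An antisense gene with overlapping exons, Srrm4os (5.24 and 5.09 TPM), makes the Srrm4 value uncertain where strand is not known.

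An exon of 20 nt in Srrm3, annotated only in the decay-targeted transcript Srrm3-201, was included at 27.3% in replicate 1 and 41.8% in replicate 2. It rests on 2.79 and 4.18 TPM of transcripts with the exon, against 7.43 and 5.83 TPM of Srrm3-204 without it. Of the regulators' exons that reached a summed TPM of 2 in both libraries, this one had the widest gap between them.

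**Figure D2:**
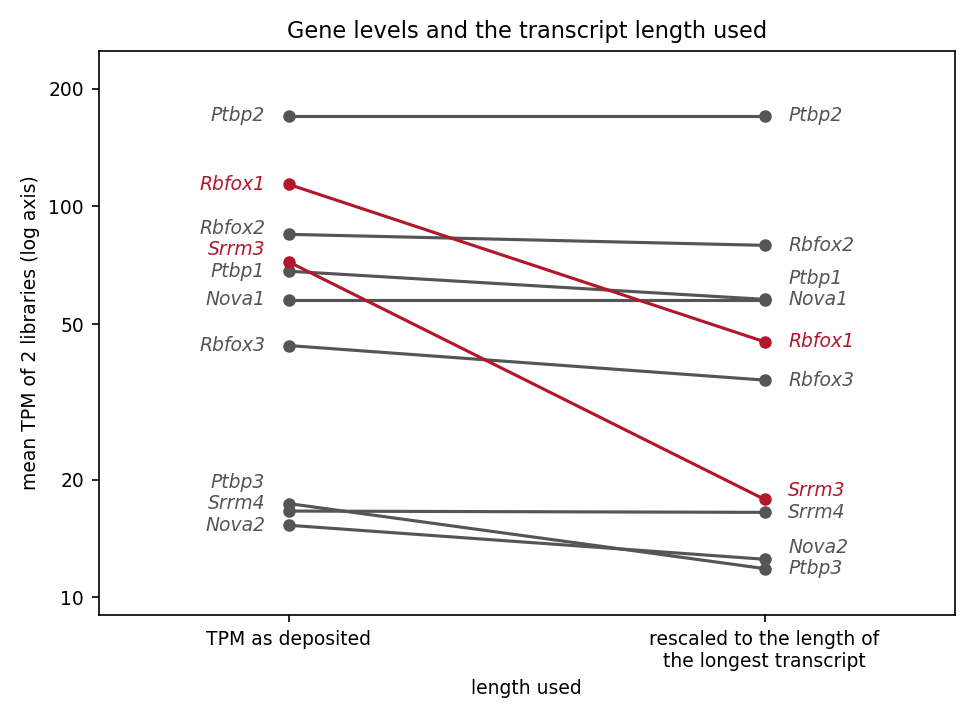
Mean TPM over 2 libraries of each regulator on a log axis, as deposited (left) and rescaled to the length of its longest transcript (right). Srrm3 and Rbfox1, in red, fell by the largest factors, 4.05-fold and 2.53-fold, while Ptbp2, Nova1 and Srrm4 kept about the same value.

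Nova1, the first of the KH-domain Nova proteins, exceeded Nova2 in both libraries. Nova1 (ENSMUSG00000021047.6, chr12:46694517-46818929, minus strand) had 61.4 TPM in replicate 1 and 54.1 TPM in replicate 2, from 8744 and 9102 counts. Nova2, its paralog of cortical and other neurons (ENSMUSG00000030411.11, chr7:18925888-18965319, plus strand), had 15.95 and 14.6 TPM from 2205 and 2449 counts. Nova1 was 3.77-fold higher on average, with a log2(TPM + 1) difference of 1.85 ± 0.0448 (SD, n = 2). It held 79.0% of the pair's TPM. The direction was the same in counts (3.84-fold) and with the longest transcript (4.60-fold).

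The tables hold 1 Nova1 transcript and 2 of Nova2. Nova2-201, the longer at 8372 nt, had 51.6% and 56.6% of Nova2 TPM. The other, of 5110 nt, is not in GENCODE M21. No cassette exon of either gene could be measured from these models.

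The summed level of the Rbfox family was 251 TPM in replicate 1 and 235 TPM in replicate 2. Rbfox1 (ENSMUSG00000008658.11, chr16:5885355-7411526, plus strand), a regulator of neurons and muscle, had 122 and 106 TPM from 3935 and 4114 counts. Rbfox2 (ENSMUSG00000033565.12, chr15:77078990-77307004, minus strand), the broadly expressed member, had 84.9 and 84.7 TPM from 11399 and 13423 counts. Rbfox3 (ENSMUSG00000025576.13, chr11:118489762-118911597, minus strand), the antigen known as NeuN and used as a marker of mature neurons, had 43.8 and 44.4 TPM from 2273 and 2668 counts. The 3 genes did not overlap in TPM.

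Which of Rbfox1 and Rbfox2 led depended on the length. In TPM Rbfox1 was higher by 0.52 in replicate 1 and 0.31 in replicate 2 on the log2(TPM + 1) scale. In counts its log2 difference from Rbfox2 was -1.62 ± 0.121, and with the longest transcript -0.81 ± 0.119 (SD, n = 2). Of Rbfox1 TPM, 83.7% and 82.6% lay on Rbfox1-202, a model of 1191 nt of which 1188 nt are coding, so that it holds almost no untranslated sequence. The longer Rbfox1-201, of 4084 nt in the tables, had 19.8 and 18.4 TPM. Rbfox2 was led by Rbfox2-203 (6573 nt) with 68.7% and 69.0%.

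Skeletal muscle also expresses Rbfox1. Of 6 muscle markers, 2 reached 1 TPM in both libraries, and the summed level of the list was 12.03 TPM in replicate 1 and 16.05 in replicate 2, against 122 and 106 TPM of Rbfox1. None of the 6 was at 0 in either library. Their part in the Rbfox1 level was not tested.

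Rbfox3 had the most evenly divided transcripts of the family. Rbfox3-203 carried 39.5% in replicate 1 and 34.1% in replicate 2, followed by Rbfox3-201 at 9.68 and 10.0 TPM, Rbfox3-205 at 7.62 and 7.58 TPM and Rbfox3-204 at 5.44 and 9.18 TPM. Its cassette exon of 93 nt (chr11:118502842-118502934, minus strand) encodes part of the RNA recognition motif, and the Rbfox forms that lack the matching exon are known to bind RNA poorly. The exon, in capitals, is shown from Rbfox3-203 with 20 coding bases to each side.
Rbfox3 93-nt exon: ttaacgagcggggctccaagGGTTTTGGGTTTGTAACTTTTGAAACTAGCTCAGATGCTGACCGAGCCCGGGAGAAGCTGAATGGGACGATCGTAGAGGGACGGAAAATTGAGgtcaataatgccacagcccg

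Inclusion of this exon was 99.4% in replicate 1 and 99.8% in replicate 2. The skipping transcript, Rbfox3-202, had 0.23 and 0.10 TPM. A 40-nt noncoding exon of Rbfox3 was included at 81.2% and 82.0%. The coding exon was therefore near full inclusion and the noncoding one was not, in both libraries.

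**Figure D3:**
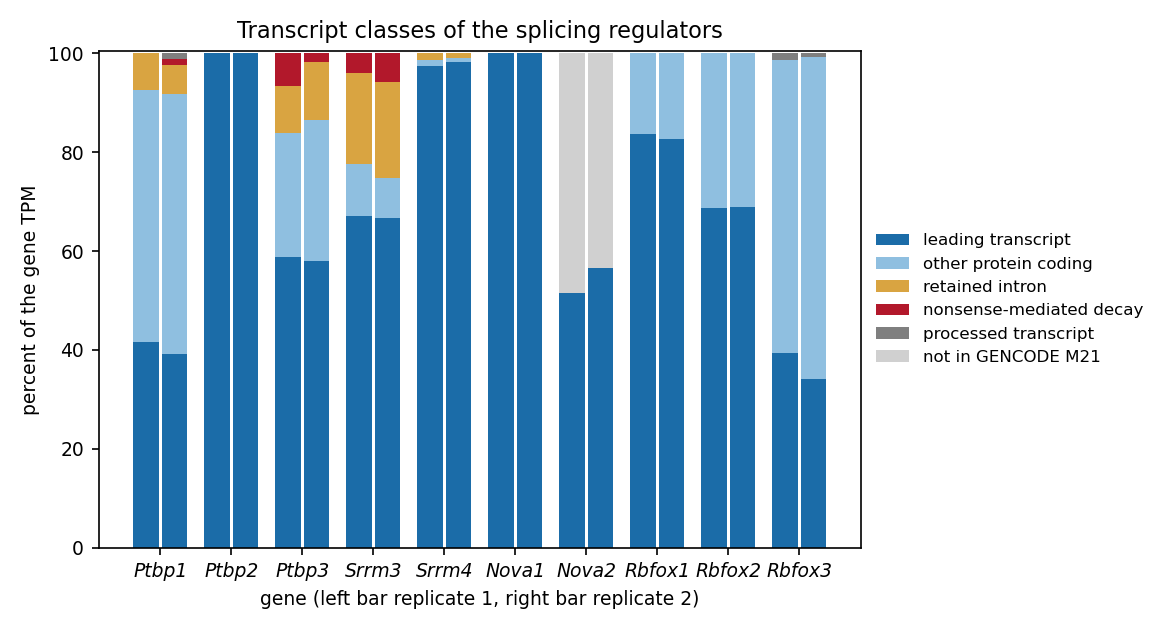
Percent of each regulator's TPM by transcript class in replicate 1 (left bar) and replicate 2 (right bar). Dark blue is the transcript with the highest mean TPM; Ptbp2 and Nova1 have 1 transcript in the tables, and Srrm3 has the largest retained-intron share, 18.5% and 19.6%.

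The libraries were set against each other with a two-sided exact binomial test of the counts, adjusted over all genes tested by the Benjamini-Hochberg method at 0.05. It compares 2 libraries, not conditions, and measures counting error only. Of the 10 regulators 3 were called, 2 of them higher and 1 lower in replicate 1. Of the 19687 genes tested 12.6% were called, 5.49% higher and 7.07% lower in replicate 1, and of the 6936 genes in the same TPM range 15.7%. Nova1 was higher in replicate 1 by 0.16 on the log2 count scale (adjusted exact p = 6.53e-12). Rbfox1 was higher in replicate 1 by 0.16 (adjusted exact p = 4.40e-05). Srrm4 was lower in replicate 1, with a log2 difference of -0.12 (adjusted exact p = 0.0224), which was 0.022 and not called when the libraries were scaled to spike-in totals. That scale shifted every log2 count difference by 0.14, and 8 regulators and 40.4% of all genes were then called.

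The deposited intervals of Nova1, 58.5 to 60.9 TPM in replicate 1 and 51.7 to 53.9 TPM in replicate 2, did not overlap. Those of Rbfox1, 114 to 123 TPM and 99.3 to 107 TPM, did not either. These 2 of 10, both higher in replicate 1, stand beside 9.27% of the 15878 genes with a mean of 1 TPM or more in either direction and 4.82% higher in replicate 1. The other 7 regulators were not called; the nearest to the threshold was Ptbp2 (adjusted exact p = 0.0576), which had a log2 count difference of -0.049. The median absolute log2(TPM + 1) difference between libraries was 0.039 over the regulators and 0.084 over all detected genes. For Ptbp2, Nova1 and Rbfox2 the TPM lay above its own interval in both libraries.

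Markers were called between the libraries too, some at high counts, where a test of counting error can call small differences. Map2, called lower, had 27690 and 32980 counts and a log2(TPM + 1) difference of -0.0062. The median log2(TPM + 1) difference was 0.052 for neuronal, -0.11 for progenitor and 0.28 for mesenchymal markers. It was -0.12 for hindbrain, -0.23 for microglial, -0.12 for erythroid, -0.072 for endothelial, -0.34 for skeletal muscle and 0.032 for forebrain markers. Of the 6 neuronal markers 3 were called higher and 1 lower in replicate 1, of the 6 progenitor markers 2 higher and 4 lower, and of the 5 mesenchymal markers 4 higher and 0 lower. In the other lists the calls were mostly lower in replicate 1: 0 higher and 3 lower of 5 hindbrain, 0 and 3 of 5 microglial, 1 and 4 of 5 erythroid, 0 and 1 of 5 endothelial, and 0 and 3 of 6 skeletal muscle markers. No forebrain marker was called of 4 tested. Over all genes tested the exact binomial test called 5.49% higher and 7.07% lower in replicate 1. The part of cell composition in the Nova1, Rbfox1 and Srrm4 differences was not tested.

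**Figure D4:**
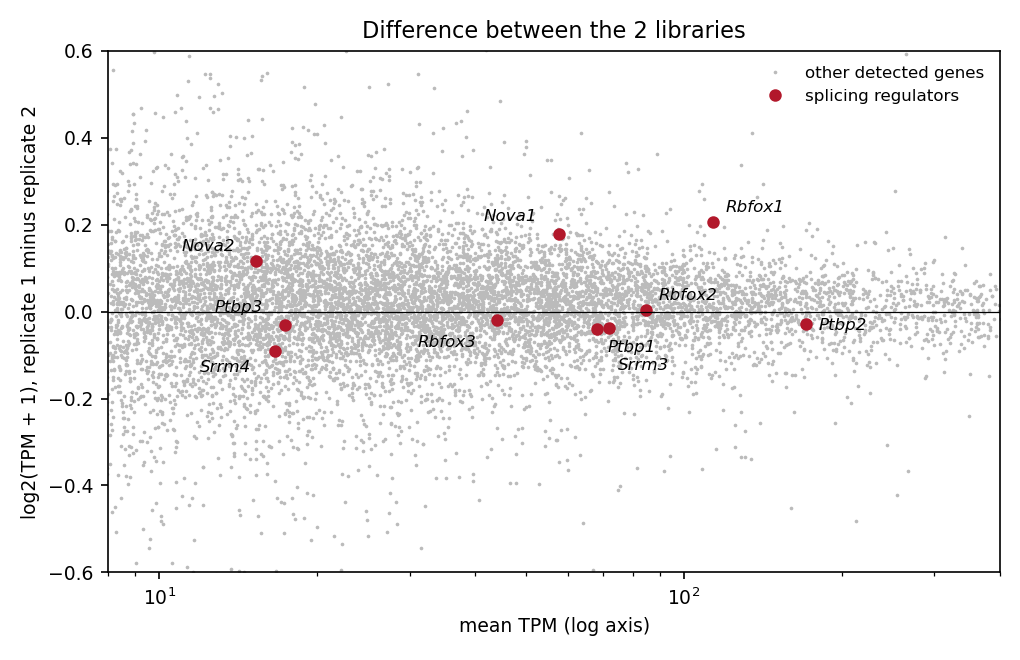
Difference between replicate 1 and replicate 2 in log2(TPM + 1) against mean TPM on a log axis, for the regulators (red, named) and other detected genes (grey; genes beyond the axes are not drawn). Nova1 and Rbfox1 lie highest among the regulators, at 0.18 and 0.20.

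Partners of these regulators and other neural splicing factors were measured for context. All 31 such genes were detected, with a median of 60.4 TPM, close to the 63.0 TPM of the regulators. Of the 31, 4 were called higher and 9 lower in replicate 1, beside 5.49% and 7.07% of all genes tested. In the TPM range of the regulators 15.7% of genes were called in either direction. High counts let small differences be called: Hnrnpk, called lower, had a log2(TPM + 1) difference of -0.015 from 52342 and 62462 counts. Among 8 partners and relatives of the PTB proteins, Hnrnpk (1369 and 1383 TPM), Matr3 (632 and 622 TPM) and Pcbp1 (218 and 270 TPM) were highest, and the PTB corepressor Raver2 (4.03 and 4.81 TPM) was lowest. Among 4 genes of the microexon machinery, Srrm2 had 406 and 407 TPM, Rnps1 249 and 237 TPM and Srsf11 180 and 181 TPM, and Srrm1 was lowest with 173 and 176 TPM. Among 19 other splicing factors of the Celf, Elavl, Mbnl, Khdrbs, Musashi and quaking families, Elavl4 (318 and 312 TPM), Celf4 (168 and 164 TPM) and Khdrbs1 (128 and 127 TPM) led, and Mbnl3 had 1.41 and 1.15 TPM.

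Exons that these regulators are known to control, or that sit in their target genes, were examined in 19 genes. A cassette exon could be measured in 11 of them. In Dlg4, Daam1, Gphn, Camk2g and Kif21a too little TPM lay on transcripts matching GENCODE M21 in length, and Rest, Glra2 and Vamp1 had no cassette exon among the matching transcripts. The 11 genes held 11 microexons of 27 nt or less, in 7 genes, of which 8 were a multiple of 3 in length. Microexons that carry the best-known neural choices are shown with the exon in capitals and 20 coding bases to each side, from GENCODE M21 transcripts on GRCm38: Src at chr2:157458843-157458860 (plus strand), Mef2a at chr7:67244521-67244544 (minus), Apbb1 at chr7:105565946-105565951 (minus) and Agrn at chr4:156168546-156168569 (minus).
Src 18-nt exon: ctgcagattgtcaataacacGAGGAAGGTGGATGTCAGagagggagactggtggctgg
Mef2a 24-nt exon: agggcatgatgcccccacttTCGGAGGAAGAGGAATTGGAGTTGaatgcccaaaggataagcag
Apbb1 6-nt exon: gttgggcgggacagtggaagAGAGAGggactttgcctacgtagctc
Agrn 24-nt exon: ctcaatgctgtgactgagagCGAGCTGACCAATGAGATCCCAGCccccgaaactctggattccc

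Among genes listed for PTB, the 18-nt exon of Src, which gives the neuronal form of this tyrosine kinase, was included at 60.1% in replicate 1 and 63.7% in replicate 2. The 24-nt exon of Mef2a, a transcription factor, had 72.2% and 72.0%. In Clta, a clathrin light chain with neuron-specific exons, the 54-nt exon had 72.8% and 69.2% and the 36-nt exon 2.93% and 2.87%. The 3 measured exons of Gabbr1, a GABA-B receptor subunit, were included at 99.7% or more in both libraries. In these bulk libraries the exons of Src and Mef2a and the 54-nt exon of Clta were thus included in part. The 36-nt exon of Clta and the exons of Gabbr1 lay near either end. Whether single cells include an exon fully or in part was not tested.

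Among genes listed for Srrm4, the 6-nt exon of Apbb1, an adaptor of the amyloid precursor protein, reached 92.1% and 91.6%, the highest of the 11 microexons. Its 13-nt exon, which is noncoding, had 24.8% and 23.6%. A 40-nt version of that exon, sharing 1 edge with it and also noncoding, had 0% and 0.139%. The 6-nt exon of Unc13b, a synaptic vesicle priming factor, had 22.9% and 16.4%, the lowest of the 11. Longer short exons of Unc13b lay near either end: 94.6% and 93.3% for 30 nt and 100% and 98.3% for 58 nt, but 5.94% and 5.54% for 33 nt, 9.25% and 7.99% for 36 nt, and 3.50% and 4.44% for 57 nt. Downstream exons of 100, 118, 124 and 74 nt had the same values and skipping transcripts as the 30-nt exon. Its value is therefore not of that exon alone. The 21-nt exons of the translation initiation factors Eif4g1 and Eif4g3 are paralogous in place and sequence and are shown in capitals, at chr16:20674786-20674806 (plus strand) and chr4:138095909-138095929 (plus strand).
Eif4g1: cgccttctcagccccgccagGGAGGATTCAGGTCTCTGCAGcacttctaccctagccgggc
Eif4g3: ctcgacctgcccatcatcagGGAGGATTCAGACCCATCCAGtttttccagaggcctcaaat

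They share 16 of 21 bases. Inclusion was 52.4% in replicate 1 and 56.8% in replicate 2 for Eif4g1, and 39.9% and 44.1% for Eif4g3. The Eif4g1 value depended on the transcripts used: coding models with both ends annotated gave 78.2% and 90.2%. So did that of its 57-nt exon, 24.7% and 26.5% over all matching models and 5.01% and 7.04% over those. A pair of further microexons in Eif4g3, of 16 nt and 5 nt, always lay in the same transcripts and had 36.6% and 35.1%, and its 33-nt exon had 42.2% and 43.4%.

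Among genes listed for Nova or Rbfox, Agrn, the synapse organiser agrin, had 80.2% in replicate 1 and 79.3% in replicate 2 for its 24-nt exon, 59.5% and 59.6% for its 12-nt exon, and 19.5% and 20.2% for a 33-nt exon. In coding models with both ends annotated all 3 Agrn exons had 49.6% and 49.4%, since 1 transcript then carried them all. Dab1, the reelin signalling adaptor, had 45.8% and 51.7% for a 39-nt exon and 10.3% and 0% for a 51-nt exon. Fn1, which encodes fibronectin of the mesenchyme, had 58.3% and 56.9% for its 270-nt exon and 57.2% and 75.6% for its 273-nt exon. In coding models with both ends annotated the 270-nt exon had 95.0% and 95.4%, and the 273-nt exon 69.8% and 89.8%. Fn1 itself had 39.9 and 29.5 TPM.

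Over the 11 target microexons the median inclusion was 54.6%, and 6 were above 50%. Of the 10 with a value in coding models with both ends annotated, 4 were above 50% and the median was 49.5%, so the count depends on the transcripts used. The largest difference between libraries was 6.48 percentage points. For the 491 microexons measured genome-wide, in 356 genes, the median was 34.01%, and 71.3% were a multiple of 3 in length. The 425 coding ones among them had a median of 40.4%, and 74.1% were a multiple of 3. The 11587 longer cassette exons had a median of 79.8%, and 43.0% were a multiple of 3. For the 7874 longer coding exons these values were 94.1% and 47.5%. The target genes were chosen for being known, and every measurable microexon in them was counted, whether or not it is a known regulated exon. Some of these exons share a transcript, so no test was made.

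**Figure D5:**
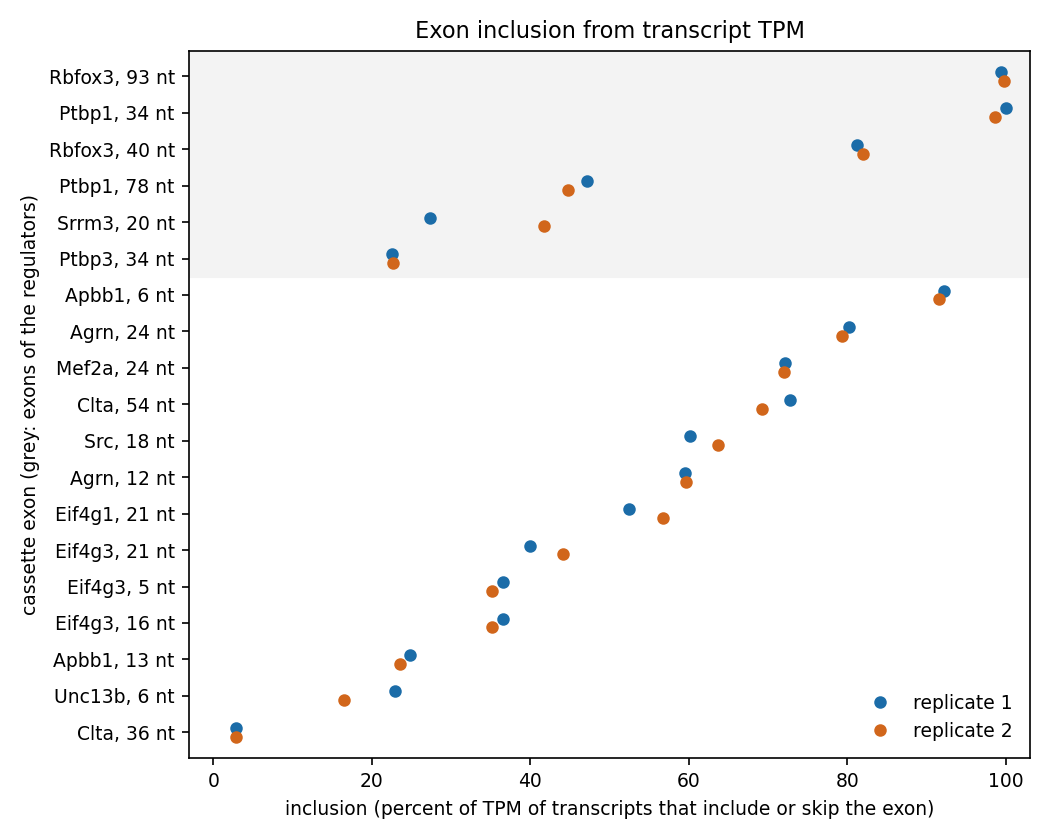
Inclusion of cassette exons in percent in replicate 1 (blue, upper point) and replicate 2 (orange, lower point), for exons of the regulators above, on grey, and target exons below. The target exons drawn, the microexons and the Clta exons, range from 2.93% and 2.87% in Clta (36 nt) to 92.1% and 91.6% in Apbb1 (6 nt), and the Srrm3 exon of 20 nt has the widest gap drawn, 27.3% against 41.8%.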

How the data were processed

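Total RNA longer than 200 nt from E13.5 hindbrain was sequenced in 2 libraries of 1 group, with spike-ins. The authors deposited gene and transcript tables with expected counts (estimated counts of reads from transcriptome alignments), TPM, FPKM, the percent of a gene's TPM on each transcript, a posterior mean TPM and the bounds of its credibility interval, a score here, per the file headers. Not given in the sources used here are the interval's level, the aligner, the counter and any strand setting. The notes deposited with the files name mm10 and GENCODE M4. Names, positions, exons and sequences came from GENCODE M21, whose assembly GRCm38 is that of mm10.

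Expected counts were rounded to whole numbers. Library totals covered 32314690 counts in replicate 1 and 37772696 in replicate 2, scaled by TMM (edgeR 4.0.16, R 4.3.3). Exact binomial tests used SciPy 1.17.1 on genes with 10 or more counts, adjusted at 0.05. Their p-values cover counting error only. Levels were set on the log2(TPM + 1) scale, with detection at 1 TPM. The binomial test was tried on counts simulated without replicate spread, and the finding of cassette exons on a made-up gene. Neither trial bears on spread between replicates or on the division of reads between transcripts.

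Exon inclusion was computed from transcripts whose identifier and length matched M21, versions being ignored: 51 of 59 regulator transcripts matched in length and 16 also in version. It required a summed TPM of 2 in both libraries and, a rule set after the data were seen, 80% of the gene's TPM on matching transcripts. The genes and lists were chosen with earlier results of these data known. Named were all regulators, the 3 highest and the lowest of each partner list, and every target gene with a measurable cassette exon, whose exons of 60 nt or less are given; 1 gene that this rule names is not reported here. Alternatives were other scalings, FPKM, posterior means, another pseudocount and each library alone. Added after the data were seen were the longest transcript's length and coding transcripts with both ends annotated.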

Additional observations from a re-analysis of the deposited data

How the results depend on the processing

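The exact binomial test called 3 regulators, and with spike-in totals as the library scale 8, when 40.4% of all genes tested were called. Under that scale the log2 count differences of Ptbp1 (0.12), Ptbp2 (0.093), Ptbp3 (0.072), Srrm4 (0.022), Rbfox2 (0.13) and Rbfox3 (0.13) turned positive, that is higher in replicate 1; the cause was not tested. The log2 ratio of Ptbp2 over Ptbp1, 1.31 in TPM, was 1.22 with the posterior mean TPM, 1.32 with a pseudocount of 0.1, 1.64 in counts scaled to library totals and 1.54 with the longest transcript, and 1.30 to 1.32 in the libraries alone. The median log2 level of the regulators, 5.99 in TPM, was 6.58 in scaled counts, 5.33 in FPKM and 5.37 with the longest transcript, and 5.96 to 6.03 in the libraries alone. Detection of all 10 regulators was kept at the alternative thresholds of 0.5 and 5 TPM. The regulators whose intervals did not overlap between libraries, 2 as deposited, were 3 with replicate 2 rescaled by the median ratio. With FPKM intervals they were 2. No paired analysis was possible because the libraries form 1 group.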
